A study of Mus musculus with 20 samples.

Results

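The collagens and other structural genes of the extracellular matrix were followed in muscle and brain of mice that carry a human mutant TDP-43 transgene. The set holds every gene whose symbol is a collagen chain (Col, digits, a, digits) and 20 further matrix genes, provided that a probe for it was above background, with a detection p-value under 0.05, on at least 4 of the 8 muscle arrays or 6 of the 12 brain arrays. Of 55 such genes with a probe in the annotation, 37 met this limit, 22 collagen chains and 15 other matrix genes, out of 9892 named genes measured in either tissue. Muscle measured 32 of them and brain 31, with 26 in both, 6 in muscle only and 5 in brain only. Fibronectin (Fn1) and fibrillin-1 (Fbn1) had no probe in the annotation used. Some collagen chains had none either: 3 of 5 listed microfibrillar and 6 of 10 listed fibril-associated chains had a probe. Col6a3 and Col12a1 were among the chains without one, so they were not measured. The 18 genes that stayed under the limit included Col5a2, Postn, Thbs1 and Thbs4, whose probes were above background on at most 1 of the 8 muscle arrays and on 0 of the 12 brain arrays. Most members have 1 probe, so the 37 genes rest on 50 probes, and a gene is given by its brightest probe unless stated otherwise.

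RNA was taken at 17 weeks of age from muscle of 4 mutant and 4 wild-type mice and from brain of 6 mutant and 6 wild-type mice, each array holding 1 mouse. Mutant mice were heterozygous for the human mutant TDP-43 transgene on a C57BL/6J background, and the controls, labelled as heterozygote wt, had the same background. The mutation and the promoter that drives the transgene are not given in the sources used here, nor is the muscle that was taken. Muscle and brain came from different mice.

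The extracellular matrix is the protein scaffold around cells. Fibril-forming collagens give it tensile strength, collagen IV builds the sheet-like basement membranes around muscle fibres and blood vessels, and collagen VI links the fibre surface to the matrix. Small proteoglycans such as decorin coat the fibrils, lysyl oxidases crosslink them, and metalloproteinases and their inhibitors govern turnover. In skeletal muscle most of this matrix is made by fibroblasts between the fibres, whereas the brain holds little fibrillar collagen outside its meninges and vessel walls. TDP-43 is an RNA-binding protein that forms aggregates in amyotrophic lateral sclerosis and frontotemporal dementia.

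Each array measured 25697 probes, and 11469 to 12966 of them exceeded background. On the first principal component 1 muscle array, wild type 2, lay away from the remaining 7. In brain 3 arrays, mutant 2, wild type 2 and wild type 4, lay away from the remaining 9. Most muscle results are given with and without wild type 2, and some brain results with and without the 3 arrays. All 10 skeletal muscle markers were above background on every muscle array and 9 of 10 brain markers on every brain array. The exception, Snap25, was above background on 0 brain arrays. Detection was not exclusive to a tissue: Mbp, Camk2a and Stmn2 were above background on all 8 muscle arrays, and Acta1 and Pvalb on all 12 brain arrays. Mouse Tardbp, read by its brightest probe, separated the genotypes in both tissues, at 6.07 to 6.38 in mutant and 7.10 to 7.22 in wild-type muscle on the log2 scale (log2 difference -0.94, limma adjusted p = 0.00511), and at 7.92 to 8.24 in mutant and 8.45 to 9.01 in wild-type brain (-0.57, limma adjusted p = 0.15). The series describes the mice as male, yet the Y-linked gene Eif2s3y was above background on all 8 muscle arrays and on only 3 mutant and 3 wild-type brain arrays, which goes against that description for the other 6 brains. In whole tissue, fewer cells of a type and less RNA per cell cannot be told apart.

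The first question was whether matrix genes differ between mutant and wild-type muscle. In muscle, 29 of 32 matrix genes (90.6%) had a mean log2 level below that of wild type, with a median difference of -0.30, while 47.7% of all 11706 probes tested lay below wild type, with a median of 0.0081. The fibril-forming chains Col1a1 (-0.74), Col3a1 (-0.68) and Col1a2 (-0.62) and the secreted glycoprotein Fstl1 (-0.67) had the largest differences. No member passed the limma threshold of an adjusted p under 0.05, which 0.179% of all probes passed. By brightest probe, 1 of 32 genes, Col1a2, had an unadjusted limma p under 0.05, against 3.02% of all probes. Counted by probe, as that share is, 4 of 42 member probes did, from Col1a2, Dcn, Sparc and Tnxb. No member had all 4 mutants below or above all 4 wild-type mice, whereas 1.09% of all probes had all mutants below and 1.06% all above. The shift rested largely on 1 mouse. Without wild type 2, 22 of 32 genes lay below wild type (48.1% of all probes), and the median was -0.052 against 0.0068 over all probes. In that setting 0 genes were called (0.171% of all probes). An unadjusted limma p under 0.05 was found for 1 gene (2 of 42 member probes), against 5.54% of all probes.

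**Figure D1:**
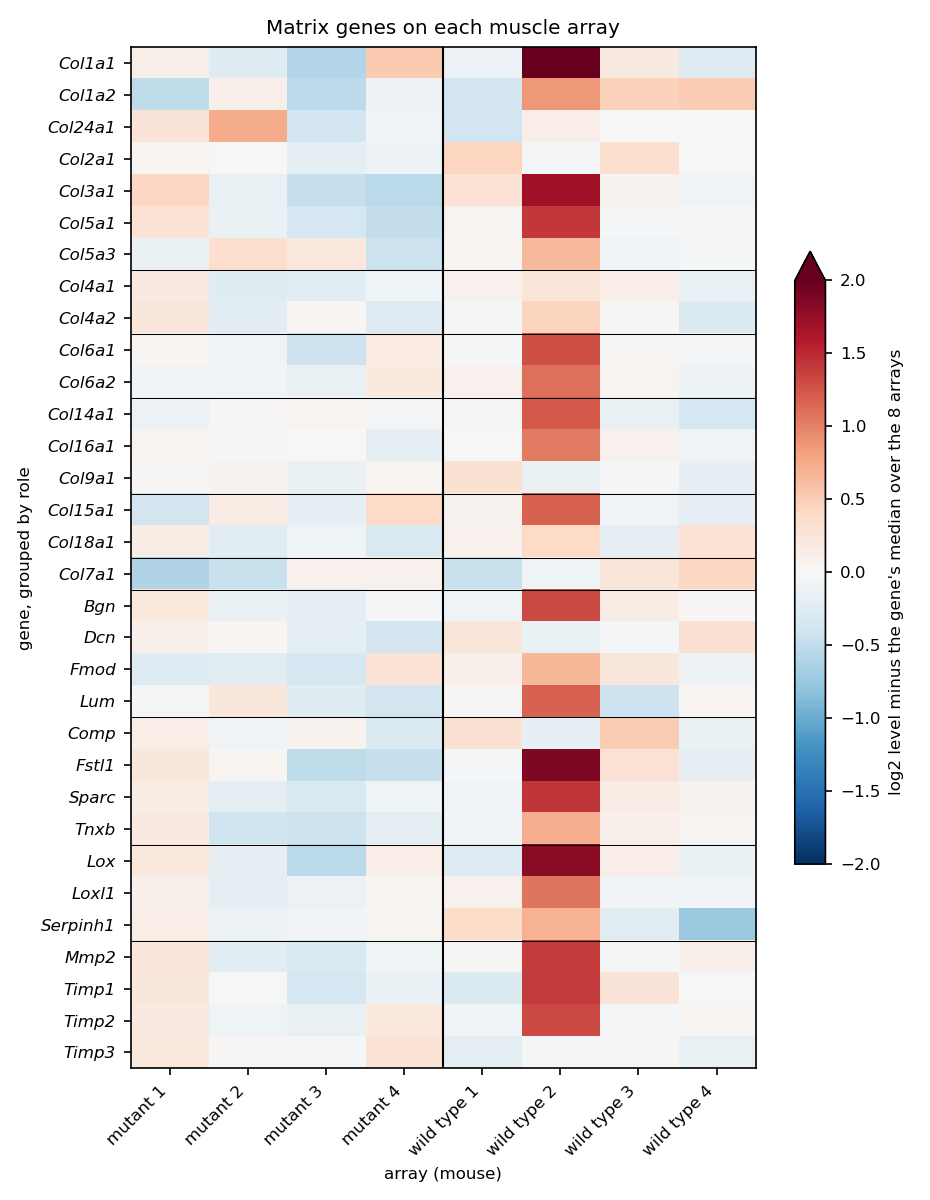
Heat map of 32 matrix genes on the 8 muscle arrays, mutants left of wild type. Colour gives the log2 level minus the gene's median over the 8 arrays, with rows grouped by role. Wild type 2 is the highest array for 25 of the 32 genes.

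Col1a1, the alpha 1 chain of type I collagen, had log2 levels of 7.99, 7.63, 7.29 and 8.40 in the mutant muscles, against 7.76, 10.85, 8.06 and 7.62 in the wild-type muscles. Wild type 2 lay 3.04 above the mean of the other 3 wild-type arrays, which all lay within the range of the mutants. The difference was -0.74 (SE 0.61, limma adjusted p = 1.00, exact permutation p = 0.514), and 0.015 (SE 0.23) without wild type 2.

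Col1a2, the partner chain of type I collagen, was at 5.69, 6.29, 5.68 and 6.10 in the mutants and at 5.81, 7.07, 6.66 and 6.70 in wild type. Here 3 of the 4 wild-type muscles lay above all mutants, and wild type 1 lay among them. The difference was -0.62 (SE 0.25, unadjusted limma p = 0.0302, adjusted p = 1.00, exact permutation p = 0.0857), and -0.44 (SE 0.23, unadjusted limma p = 0.0768) without wild type 2. The smallest two-sided exact p that 4 against 4 mice allow is 0.0286, and no member reached it.

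Col3a1, type III collagen of distensible tissues, was at 6.65, 6.09, 5.77 and 5.69 in the mutants and at 6.52, 7.93, 6.30 and 6.16 in wild type. Mutant 1 lay above 3 of the wild-type muscles, and the difference of -0.68 (SE 0.36) became -0.27 (SE 0.21) without wild type 2. Another Col3a1 probe, near background at a mean of 4.56 in mutants and 4.57 in wild type, differed by -0.0048. Col5a1, which helps to start fibrils, was at 8.51, 8.09, 7.87 and 7.75 in the mutants, against 8.28, 9.63, 8.20 and 8.25 in wild type. Its difference was -0.54 (SE 0.30), and -0.19 (SE 0.17) without wild type 2.

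Col2a1, the chain of cartilage collagen, was dim, at 4.70, 4.66, 4.49 and 4.57 in the mutants and 5.10, 4.63, 4.99 and 4.68 in wild type. It was above background on 2 mutant and 4 wild-type muscles. Unlike the type I and III chains it was not high in wild type 2, and its difference was -0.25 (SE 0.13) with that array and -0.29 (SE 0.12) without it, where it was the 1 gene with an unadjusted limma p under 0.05. With all 8 arrays its exact permutation p was 0.143. The fibril-forming chain Col24a1 had a difference of 0.20 and Col5a3 one of -0.15. As a group, 6 of 7 measured fibril-forming chains lay below wild type with a median of -0.54, and 4 of 7 with a median of -0.19 without wild type 2.

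**Figure D2:**
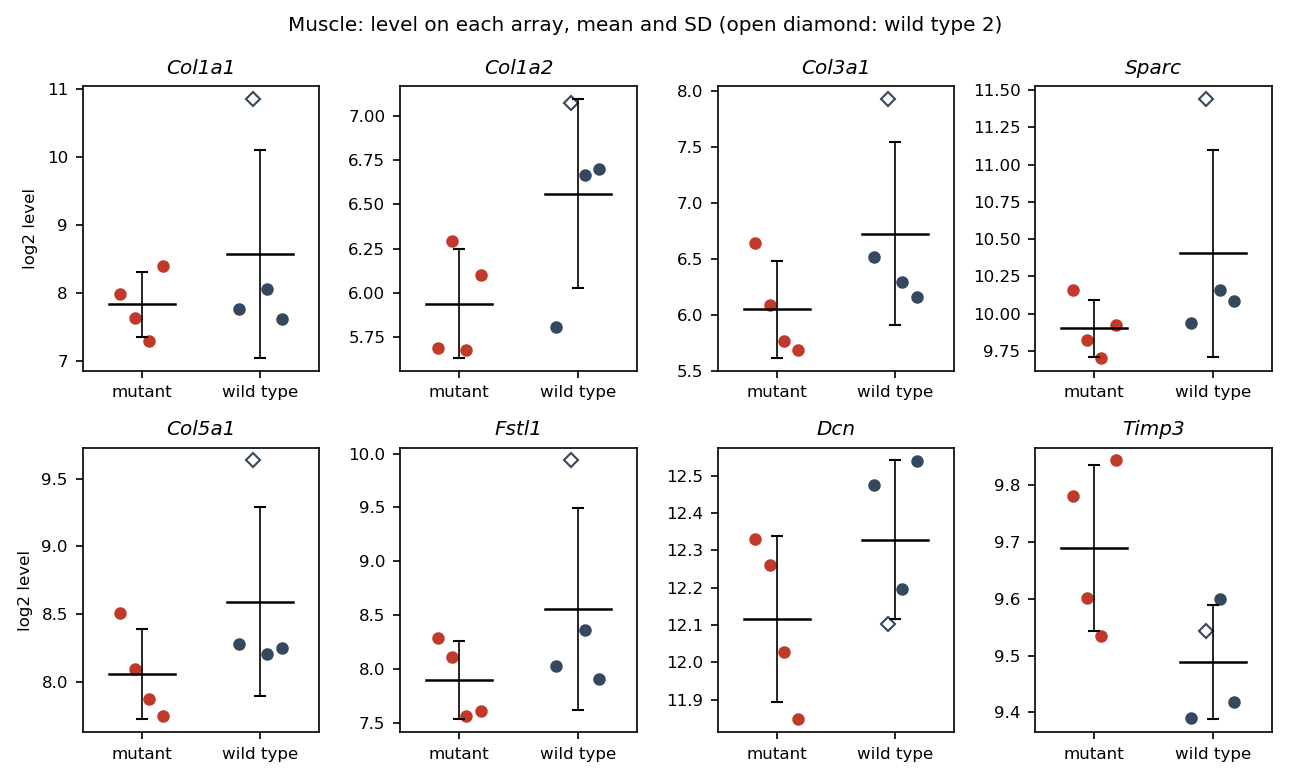
Log2 level of 8 matrix genes on each muscle array, mutants left of wild type, with the mean and SD (n = 4 each); an open diamond marks wild type 2. For Col1a1 that array is at 10.85 and the other wild-type arrays lie within the mutants, whereas for Dcn and Timp3 it lies among the other arrays.

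The promoters of 4 members are shown, 3 whose levels were high together in wild type 2 (Col1a2, Col3a1 and Sparc) and 1, Timp3, that was not. Each is the stretch of 250 bases that ends just before the RefSeq transcription start in build GRCm38.p6, read 5′ to 3′ on the strand of the gene. The positions are chr6:4505368-4505617 for Col1a2 on the plus strand, chr1:45311288-45311537 for Col3a1 on the plus strand, chr11:55420081-55420330 for Sparc on the minus strand and chr10:86300162-86300411 for Timp3 on the plus strand. Capitals mark matches, on either strand, to 3 short motifs: CCAAT, the CCAAT box, then GGGCGG, the GC box, and TATAAA, the TATA box.
Col1a2: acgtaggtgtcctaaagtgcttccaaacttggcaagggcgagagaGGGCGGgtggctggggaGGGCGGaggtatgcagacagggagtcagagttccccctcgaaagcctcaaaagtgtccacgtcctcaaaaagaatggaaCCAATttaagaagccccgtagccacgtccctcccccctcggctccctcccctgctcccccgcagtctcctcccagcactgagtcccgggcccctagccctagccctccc
Col3a1: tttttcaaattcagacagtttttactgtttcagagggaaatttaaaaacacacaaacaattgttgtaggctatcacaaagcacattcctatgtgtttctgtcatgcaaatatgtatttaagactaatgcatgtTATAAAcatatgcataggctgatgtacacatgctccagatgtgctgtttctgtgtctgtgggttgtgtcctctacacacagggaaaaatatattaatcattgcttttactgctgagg
Sparc: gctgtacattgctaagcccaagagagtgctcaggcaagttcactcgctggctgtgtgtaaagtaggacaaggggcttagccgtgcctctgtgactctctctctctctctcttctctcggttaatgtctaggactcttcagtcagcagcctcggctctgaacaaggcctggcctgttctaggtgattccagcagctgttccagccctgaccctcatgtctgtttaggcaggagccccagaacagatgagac
Timp3: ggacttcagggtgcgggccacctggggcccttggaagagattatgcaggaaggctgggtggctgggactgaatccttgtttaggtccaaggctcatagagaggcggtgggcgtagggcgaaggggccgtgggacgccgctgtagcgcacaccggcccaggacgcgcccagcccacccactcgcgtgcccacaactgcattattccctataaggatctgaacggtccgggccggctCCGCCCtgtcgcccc
Col1a2 holds a CCAAT box 109 bases before the start and 2 GC boxes, Col3a1 a TATA box 117 bases before the start, Timp3 a GC box on the opposite strand and Sparc none of the 3 motifs, so the genes that were high together share no match in this window. The RefSeq table held 30 promoters for 27 of the 37 members. Among these, 40.0% had a CCAAT box, 60.0% a GC box and 6.67% a TATA box, against 33.8%, 32.7% and 12.4% of all 32817 promoters of this length. A match describes letters only and is not a tested site.

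Of the basement membrane chains, Col4a1 had a difference of -0.17 and Col4a2 one of -0.098 in muscle. These genes lie head to head in the genome and encode the chains of the common collagen IV network. Without wild type 2 they were at -0.11 and 0.034. The collagen VI chains Col6a1 (-0.38) and Col6a2 (-0.30) both moved close to 0 without wild type 2, at -0.057 and -0.030. A further Col6a1 probe gave -0.25 with and without that array, and on it wild type 2 lay only 0.017 above the other wild-type arrays, against 1.30 on the first probe. The fibril-associated chains Col14a1 (-0.20) and Col16a1 (-0.29), and the basement membrane zone collagens Col15a1 (-0.25) and Col18a1 (-0.26), were at 0.13, -0.034, 0.054 and -0.18 without wild type 2. Col7a1, the anchoring fibril collagen, was at -0.25 with that array and -0.29 without it. Col9a1 stayed near background and differed by 0.0082.

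Among the small leucine-rich proteoglycans, decorin (Dcn), biglycan (Bgn), fibromodulin (Fmod) and lumican (Lum) regulate how fibrils assemble. Fmod was at 7.0, 7.02, 6.91 and 7.55 in the mutants and 7.35, 7.91, 7.48 and 7.15 in wild type, so that mutant 4 lay above 3 of the wild-type muscles. The difference was -0.36 (SE 0.19), and -0.21 (SE 0.16) without wild type 2. Bgn (-0.38) and Lum (-0.31) moved to -0.058 and 0.014. Dcn was not high in wild type 2. Its brightest probe, at 12.33, 12.26, 12.03 and 11.85 in the mutants and 12.48, 12.10, 12.20 and 12.54 in wild type, differed by -0.21 (SE 0.15), and by -0.28 (SE 0.14) without wild type 2. Its other probe was at 10.30, 9.86, 9.81 and 9.06 in the mutants, against 10.27, 10.26, 10.19 and 10.57 in wild type. There 3 of 4 mutants lay below all wild-type mice, wild type 2 lay within the other wild-type arrays, and the difference was -0.57 with it (SE 0.22, unadjusted limma p = 0.0278, exact permutation p = 0.114) and -0.59 without it (SE 0.24, unadjusted limma p = 0.0331, adjusted p = 0.886).

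The matrix glycoproteins measured in muscle were Sparc, a collagen-binding protein, Fstl1, Tnxb, the tenascin that links collagen fibrils, and Comp, a cartilage and tendon protein. Sparc was at 10.16, 9.83, 9.70 and 9.92 in the mutants, against 9.94, 11.44, 10.16 and 10.09 in wild type. Wild type 2 was 1.38 above the mean of the other wild-type arrays, and the difference of -0.50 (SE 0.29) became -0.16 (SE 0.13) without it. The other Sparc probe, on which wild type 2 was 0.62 above, read 8.43, 7.97, 7.67 and 7.80 in the mutants and 8.26, 8.95, 8.40 and 8.34 in wild type. Mutant 1 aside, the mutants lay below all wild-type arrays on it, with a difference of -0.52 (SE 0.19, unadjusted limma p = 0.0224, exact permutation p = 0.114) and of -0.36 (SE 0.17) without wild type 2.

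Fstl1, a follistatin-like secreted protein, was at 8.29, 8.11, 7.57 and 7.61 in the mutants and 8.03, 9.94, 8.37 and 7.91 in wild type, a difference of -0.67 (SE 0.39), and of -0.21 (SE 0.19) without wild type 2. Tnxb was at 8.76, 8.18, 8.17 and 8.39 in the mutants and at 8.52, 9.31, 8.68 and 8.64 in wild type. As with the other Sparc probe, mutant 1 was the one mutant above a wild-type array other than wild type 2. The 3 Tnxb probes gave differences of -0.47, -0.41 and -0.36, and of -0.31, -0.24 and -0.22 without wild type 2, with a lowest unadjusted limma p of 0.0242 (adjusted p = 1.00). Comp was at -0.17, and at -0.26 without wild type 2. All 4 measured glycoproteins lay below wild type with and without that array, with medians of -0.46 and -0.22.

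Of the genes for crosslinking and folding, the lysyl oxidases Lox (-0.48) and Loxl1 (-0.30) were at -0.0042 and -0.030 without wild type 2, and Serpinh1, the collagen chaperone, was at -0.023 and 0.19. Among the turnover genes, the gelatinase Mmp2 was at -0.47 and the inhibitors Timp1 and Timp2 at -0.40 and -0.28, and without wild type 2 these were -0.13, -0.047 and 0.055. Timp3, an inhibitor bound to the matrix, was 1 of 3 members above wild type, with Col24a1 and Col9a1, and kept its value without that mouse. It was at 9.78, 9.60, 9.53 and 9.84 in the mutants, against 9.39, 9.54, 9.60 and 9.42 in wild type. The difference was 0.20 (SE 0.11, unadjusted limma p = 0.106, exact permutation p = 0.114), and 0.22 (SE 0.12) without wild type 2. The other Timp3 probe, with means of 4.77 in mutants and 4.70 in wild type, differed by 0.071, and by 0.0048 without wild type 2.

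**Figure D3:**
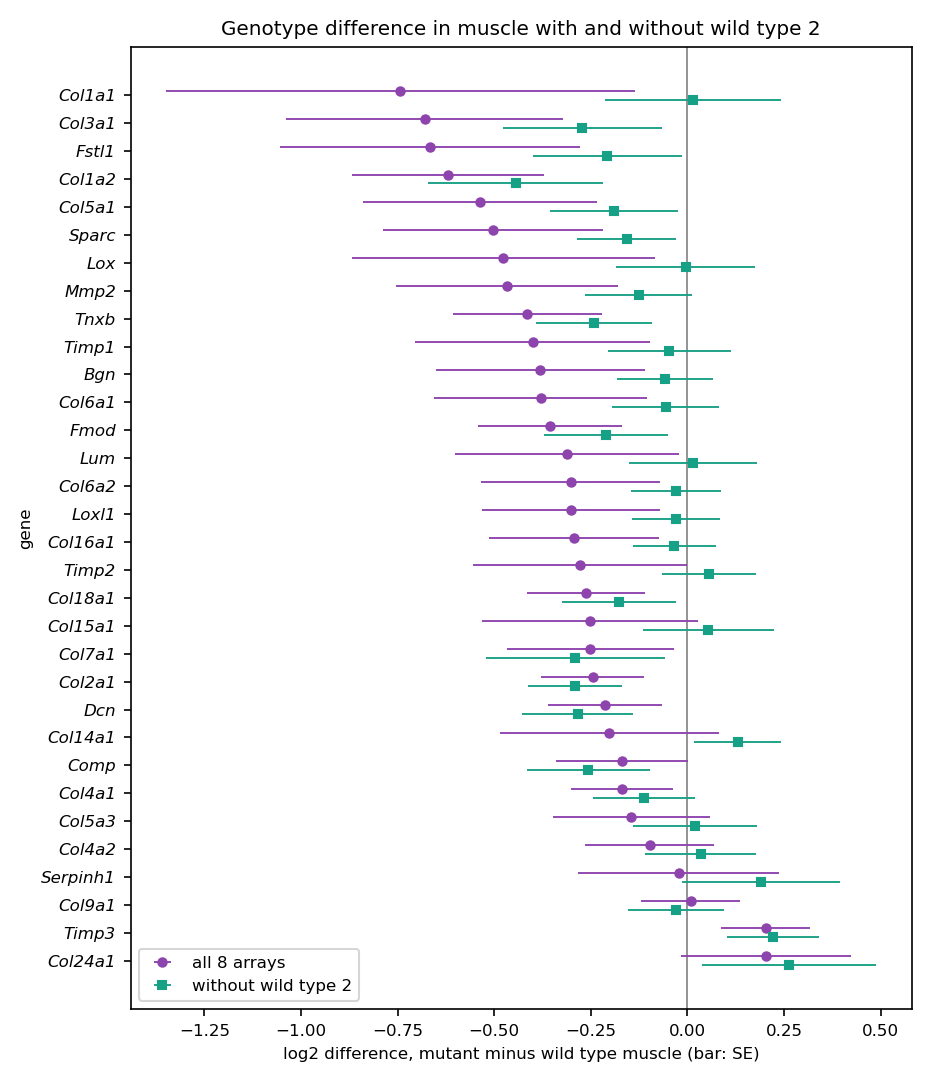
Log2 difference (mutant minus wild type muscle, horizontal axis) of 32 matrix genes with its SE, from all 8 arrays (circles) and without wild type 2 (squares). With all arrays the values run from -0.74 for Col1a1 to 0.20 for Col24a1, and without wild type 2 from -0.44 for Col1a2 to 0.26.

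Wild type 2 was the highest of the 8 arrays for 25 of 32 members, against 21.9% of all probes. It lay at least 1 log2 unit above the mean of the other wild-type arrays for 17 members. The median over members was 1.06, against 5.97e-05 over all probes, with a range from -0.39 for Comp to 3.04 for Col1a1. The 7 members for which it was not highest were Dcn, Timp3, Comp, Col2a1, Col7a1, Col9a1 and Col24a1. Without it, 24 of 32 members moved closer to 0 and 9 changed sign. These moves follow in large part from its being the highest array for most members. The shares of all probes for the counts of 17, 24 and 9 were not taken.

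Genes around the members were read from lists of related function and of cell types. The elastic fibre genes lay with the matrix genes: 6 of 7 were below wild type in muscle with a median of -0.38, and 5 of 7 with a median of -0.032 without wild type 2, an array on which their median level was 1.36 above the median of all 8. Within this list the fibulin Fbln1 differed by -0.45 (SE 0.14, adjusted p = 1.00 by limma, which adjusts over all probes), and by -0.39 without wild type 2, and Mfap5, Mfap4 and Eln were at -0.65, -0.52 and -0.38 with that array and at -0.18, -0.18 and -0.020 without it. The enzymes and chaperones of collagen processing, such as the procollagen enhancer Pcolce (-0.29) and the hydroxylase P4ha1 (0.23), had 11 of 12 genes below wild type with a median of -0.093. Without wild type 2 these were 9 of 12 and -0.050, with Pcolce at -0.057 and P4ha1 at 0.15. For TGF-beta signalling, the main inducer of collagen synthesis, 9 of 17 genes lay below wild type, with a median of -0.0019 and with Tgfb1 at -0.31, against 10 of 17, -0.016 and -0.043 without wild type 2. Matrix receptors had 9 of 10 genes below with a median of -0.089, among them Cd44 at -0.34, and laminins and other basement membrane genes 5 of 8 with a median of -0.12, among them Nid1 at -0.25. Without wild type 2 the receptors had 7 of 10 below with a median of -0.041 and Cd44 at 0.049, and the laminin list had 6 of 8 below with a median of -0.021 and Nid1 at -0.046. No gene of these 5 lists was called by limma, where 0.179% of all probes were. With all arrays 1, Fbln1, had an unadjusted limma p under 0.05, against 3.02% of all probes. Without wild type 2, 1 elastic fibre gene and 1 matrix receptor gene had one, against 5.54% of all probes.

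Markers of other cell types moved with wild type 2 as well. Macrophage markers lay 0.65 above their median on that array, and their summed level was 766 to 1223 in mutants and 838 to 3048 in wild type, with 1080 as the highest wild-type value without it. All 10 measured macrophage markers were above background on some muscle array. Fibroblast markers, 13 of 13 measured, summed to 1632 to 2241 in mutants and 1878 to 4401 in wild type, where 1989 was the highest value without wild type 2. Of these, 11 of 13 lay below wild type with a median of -0.29, and 9 of 13 with a median of -0.097 without wild type 2. Skeletal muscle markers (0.07 below their median on wild type 2), tendon markers (summed level 284 to 316 in mutants and 238 to 311 in wild type), endothelial markers (3086 to 3484 in mutants and 2638 to 3472 in wild type) and adipocyte markers (2563 to 4173 in mutants and 2566 to 3747 in wild type, with Fabp4 above background on 0 arrays) showed no such excess on that array. Smooth muscle and pericyte, Schwann cell and blood markers had median differences of -0.11, 0.021 and -0.14, and of -0.010, 0.069 and 0.085 without wild type 2. Blood markers summed to 6531 to 15180 in mutants and 6019 to 14000 in wild type, with 11660 as the highest wild-type value without wild type 2. Schwann cell markers summed to 494 to 636 in mutants and 503 to 711 in wild type, with 535 without it. The 1 measured proliferation marker had a difference of -0.11. Pancreatic acinar genes, whose level split the genotypes (summed level 338 to 371 in mutants and 867 to 1526 in wild type, with 9 of 10 called and 8 of 10 without wild type 2), had their highest sum in another wild-type mouse. The part of these cell types in the matrix differences was not tested.

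The same question was then asked in brain. There the matrix genes lay on both sides of wild type: 13 of 31 (41.9%) lay below wild type, against 49.5% of all 12423 probes, with a median of 0.017 against 0.0025 over all probes. The lowest differences were those of Col16a1 (-0.43), a fibril-associated collagen, and Fstl1 (-0.39), and the highest was that of Col9a2 (0.19). No member was called by limma, where 0.00805% of all probes were. An unadjusted limma p under 0.05 was found for 2 of 31 genes (2 of 39 member probes), against 7.02% of all probes. No member had all 6 mutants below or above all wild-type brains, as 0.386% and 0.209% of all probes had.

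Col16a1 ranged from 6.58 to 7.55 with a median of 7.12 in mutant brains, and from 7.14 to 7.88 with a median of 7.52 in wild-type brains. The groups overlapped, with a difference of -0.43 (SE 0.16, limma adjusted p = 0.621, exact permutation p = 0.0325), and it was -0.45 without the 3 arrays that stood apart. Fstl1 ranged from 6.08 to 6.82 with a median of 6.42 in mutants and from 6.16 to 7.17 with a median of 6.89 in wild type. Wild types 1 and 6 lay within the range of the mutants and the other 4 above it. The difference was -0.39 (SE 0.17, limma adjusted p = 0.691, exact permutation p = 0.0714), and -0.26 without the arrays that stood apart, which include the highest 2 wild-type values.

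Bgn had a lowest, median and highest level of 6.54, 7.09 and 7.34 in mutants, against 6.96, 7.37 and 7.61 in wild type, with a difference of -0.26 (SE 0.15). The basement membrane chain Col4a1 had 7.79, 7.80 and 7.91 in mutants and 7.13, 7.71 and 7.85 in wild type. The lowest mutant lay above all but 1 wild-type brain, and the difference was 0.18 (SE 0.11, limma adjusted p = 0.783, exact permutation p = 0.0390), and 0.076 without wild type 1, the lowest brain. Col4a2 differed by -0.053. Col4a5, a chain of another collagen IV network, was near background, at 4.37, 4.61 and 5.05 in mutants and 4.46, 4.84 and 5.29 in wild type, a difference of -0.22 (SE 0.16). The smallest exact p for 6 against 6 mice is 0.00216, and the lowest among members after adjustment over all brain probes was 0.602.

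The transmembrane collagen Col23a1 had a lowest, median and highest level of 5.72, 5.99 and 6.14 in mutant brains, against 5.61, 5.81 and 6.22 in wild type, with a difference of 0.13 (SE 0.11). Tnxb was at 5.32, 5.81 and 5.97 in mutants and 5.18, 5.63 and 5.82 in wild type, and differed by 0.15 (SE 0.13), while its other probe differed by -0.071. Col26a1 was at 5.27, 5.57 and 5.81 in mutants and 5.19, 5.80 and 6.07 in wild type, and differed by -0.15 (SE 0.16). All 3 overlapped almost fully between genotypes. Type I collagen was dim in brain, where Col1a1 and Col1a2 differed by -0.11 and 0.054, and the fibril-forming chains as a group had 3 of 5 below wild type with a median of -0.078.

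Probes for the same gene differed on the brain arrays that stood apart. The mean of those 3 arrays minus that of the other 9 was 0.49 on the first Sparc probe and -1.44 on the other, where all 3 lay below all other brains. That probe differed by 0.41 between mutants and wild type (SE 0.35), with 1 of the 3 low arrays among the mutants and 2 among wild type, and the first probe by 0.085 (SE 0.17). For the 2 Col6a1 probes the same mean differences were -0.41 and -1.13. Of 39 member probes, 4 (10.3%) had all 3 arrays above the other brains, against 9.35% of all brain probes, and 2 (5.13%) had all 3 below, against 8.94%. The 4 were the probes of Col4a5, Col9a2 and Timp2 and the dimmer Col18a1 probe. The genotype differences given for Col4a5 (-0.22) and Col9a2 (0.19) include these arrays. Probe positions within the transcripts were not used here.

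**Figure D4:**
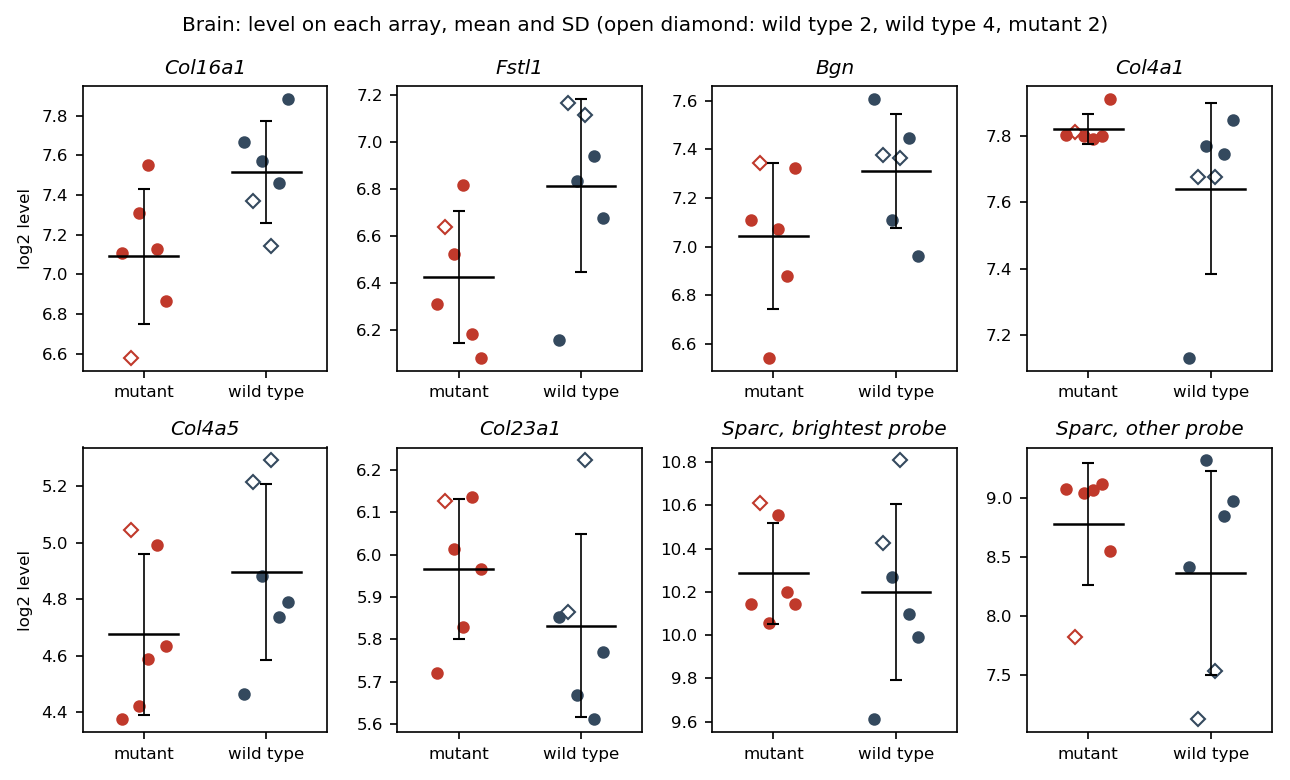
Log2 level on each brain array, mutants left of wild type, with the mean and SD (n = 6 each), for the 6 matrix genes of lowest p and for both Sparc probes. Open diamonds mark mutant 2, wild type 2 and wild type 4, which are the lowest arrays of the other Sparc probe.

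Around the members in brain, 0 genes of the related lists were called by limma, where 0.00805% of all probes were. These lists had 8 laminin and basement membrane, 12 collagen processing, 15 TGF-beta, 8 receptor and 5 elastic fibre genes measured. Of these genes 2 had an unadjusted limma p under 0.05, against 7.02% of all probes. Both were lower: Lama2, the laminin chain of muscle and glial basement membranes (-0.48, limma adjusted p = 0.532), and the connective tissue growth factor Ccn2 (-0.32, limma adjusted p = 0.562). Lama2 was above background on 4 of 6 mutant and 6 of 6 wild-type brains. The list medians were -0.11 for laminins and basement membrane genes, 0.027 for collagen processing, -0.012 for TGF-beta signalling, -0.017 for matrix receptors and -0.073 for elastic fibre genes. Markers of the meninges, a main site of fibrillar collagen in brain, summed to 2332 to 3630 in mutants and 2498 to 3703 in wild type. Those of the choroid plexus summed to 3838 to 5561 in mutants and 2719 to 7422 in wild type. Fibroblast and endothelial markers had median differences of -0.020 and 0.054.

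Whether the genotype difference itself differed between tissues was tested as an interaction over all 20 arrays. Of 26 genes measured in both tissues, 23 (88.5%) had a lower genotype difference in muscle than in brain, against 48.1% of all 10107 probes, with a median of -0.31 against 0.011. No member was called by limma, where 0.0495% of all probes were. An unadjusted limma p under 0.05 was found for 2 genes (2 of 31 member probes), against 4.36% of all probes. Without muscle wild type 2 the median was -0.071, against 0.015 over all probes, and still 0 members were called. The number of members with a lower difference in muscle was not counted in that setting. Calls over all probes when single arrays were left out are given with the processing settings below.

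One of these genes was Col1a2, with a difference of -0.62 in muscle and 0.054 in brain (interaction -0.67, SE 0.26, limma adjusted p = 0.995). The other was Tnxb, with -0.41 in muscle and 0.15 in brain (interaction -0.56, SE 0.23, limma adjusted p = 0.995). Next by p were Col4a1, at -0.17 in muscle and 0.18 in brain (interaction -0.35), and Col2a1, at -0.25 in muscle and 0.064 in brain (interaction -0.31). Without muscle wild type 2 the interaction was -0.50 for Col1a2, -0.39 for Tnxb, -0.29 for Col4a1 and -0.35 for Col2a1.

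In wild-type mice, most matrix genes were brighter in muscle than in brain. Eif2s3y was above background on all muscle arrays and on only 3 of 6 wild-type brain arrays. Tissue is therefore partly mixed with that difference between mice, and its part in these values was not tested. Of 37 genes, 26 were higher in muscle by limma (40.7% of all 14022 probes) and 7 were lower (35.2% of all probes). The median log2 difference was 1.32 against 0.078 over all probes. Of the 37, 6 met the detection limit in muscle only and 5 in brain only, so their direction was largely set by that limit. The 5, Col4a5, Col9a2, Col17a1, Col23a1 and Col26a1, were all among the lower genes. Without muscle wild type 2, 26 genes were higher and 8 lower, and the median was 1.08, against 0.078 over all probes. The 26 were not all the same genes. Col5a3 lost its call (limma adjusted p = 0.0593) and Col2a1 gained one (limma adjusted p = 0.0230). The genes with the largest differences were a gelatinase, a fibrillar collagen chain, a small proteoglycan, a lysyl oxidase and a tenascin. Those lower in muscle included the transmembrane collagens Col23a1 and Col17a1 and the inhibitor Timp2.

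Mmp2 was at 9.18, 10.46, 9.14 and 9.25 in wild-type muscle, and between 4.80 and 5.62 with a median of 5.14 in wild-type brain, a log2 difference of 4.34 (SE 0.24, limma adjusted p = 2.92e-13). Col1a1 was at 7.71, 10.57, 7.99 and 7.58 in muscle, and between 4.42 and 4.93 with a median of 4.61 in brain, a difference of 3.82 (SE 0.38), or 3.07 without muscle wild type 2. It was above background on 3 of 6 wild-type brains. The tissues did not overlap for either gene.

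Dcn was at 12.01, 11.70, 11.78 and 12.06 in muscle and between 7.62 and 9.04 with a median of 8.55 in brain (3.46, SE 0.22). Lox was at 7.09, 9.0, 7.44 and 7.21 in muscle and between 4.29 and 4.74 with a median of 4.46 in brain (3.20, SE 0.25), where 2 of 6 arrays were above background. Tnxb was at 8.44, 9.15, 8.59 and 8.56 in muscle and between 5.09 and 5.74 with a median of 5.55 in brain (3.18, SE 0.16). All wild-type muscles lay above all wild-type brains for these genes too. Mmp2, Col1a1, Dcn, Lox and Tnxb were picked for the largest differences, so the lack of overlap follows largely from that choice. The share of all probes without overlap was not counted, and Lox met the detection limit in muscle only. Col3a1 and Serpinh1 were above background on 0 wild-type brain arrays and were at least 4.66-fold and at least 2.11-fold higher in muscle (at least 3.62-fold and 1.81-fold without muscle wild type 2), where the brain value is bounded by the lowest level of a probe above background on each array.

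Of the 7 members lower in muscle, 3 were above background on 0 wild-type muscles. Col9a2, a fibril-associated chain, was at 4.42, 4.50, 4.33 and 4.58 in muscle, above background on 0 of 4 arrays, and between 5.29 and 6.25 with a median of 5.77 in brain, so that brain was at least 2.20-fold higher. Col26a1 was likewise above background on 0 muscle arrays, at 4.42, 4.35, 4.30 and 4.30 in muscle and between 5.10 and 5.99 with a median of 5.71 in brain, which was at least 1.98-fold higher. Col17a1, the hemidesmosome collagen, was at 4.38, 4.36, 4.49 and 4.31 in muscle with 0 arrays above background, and between 4.42 and 5.24 with a median of 5.00 in brain, at least 1.18-fold higher. These 3 were called by limma with adjusted p-values of 3.76e-06, 1.5e-07 and 0.00441. They met the detection limit in brain only. Their p-values therefore set brain signal against muscle background and lend no separate support to the direction.

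Col23a1 was at 4.50, 4.58, 4.28 and 4.38 in muscle and between 5.53 and 6.15 with a median of 5.73 in brain. The difference was -1.31 (SE 0.12, limma adjusted p = 1.52e-09), and only 1 of 4 wild-type muscles was above background. Col23a1 too met the detection limit in brain only, so its p-value lends no separate support to the direction. Timp2, the inhibitor that also takes part in the activation of Mmp2, was bright in both tissues, at 9.78, 11.06, 9.80 and 9.87 in muscle and between 10.48 and 11.65 with a median of 11.10 in brain. Wild type 2 was the one muscle that reached the brain levels, and the difference was -1.02 (SE 0.24, limma adjusted p = 0.000658), or -1.33 without that mouse. With arrays scaled to a common median it was -0.63 and not called (limma adjusted p = 0.147). Timp3 differed the other way, by 0.65. Brain wild types 2 and 4, which stood apart, were the highest wild-type brains for Timp2 (11.65 and 11.63) and for Col9a2 (6.23 and 6.25). Tissue differences without both of these brains were not taken. Sparc was bright in both tissues and was not called (-0.21, SE 0.24), but it was lower in muscle without wild type 2 (-0.54, limma adjusted p = 0.0183). In the mutant arrays, 36 of 37 genes had the same sign of the tissue difference, the exception being Col2a1. The share of all probes that kept their sign was not counted. Genes that met the detection limit in 1 tissue only add to this count.

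**Figure D5:**
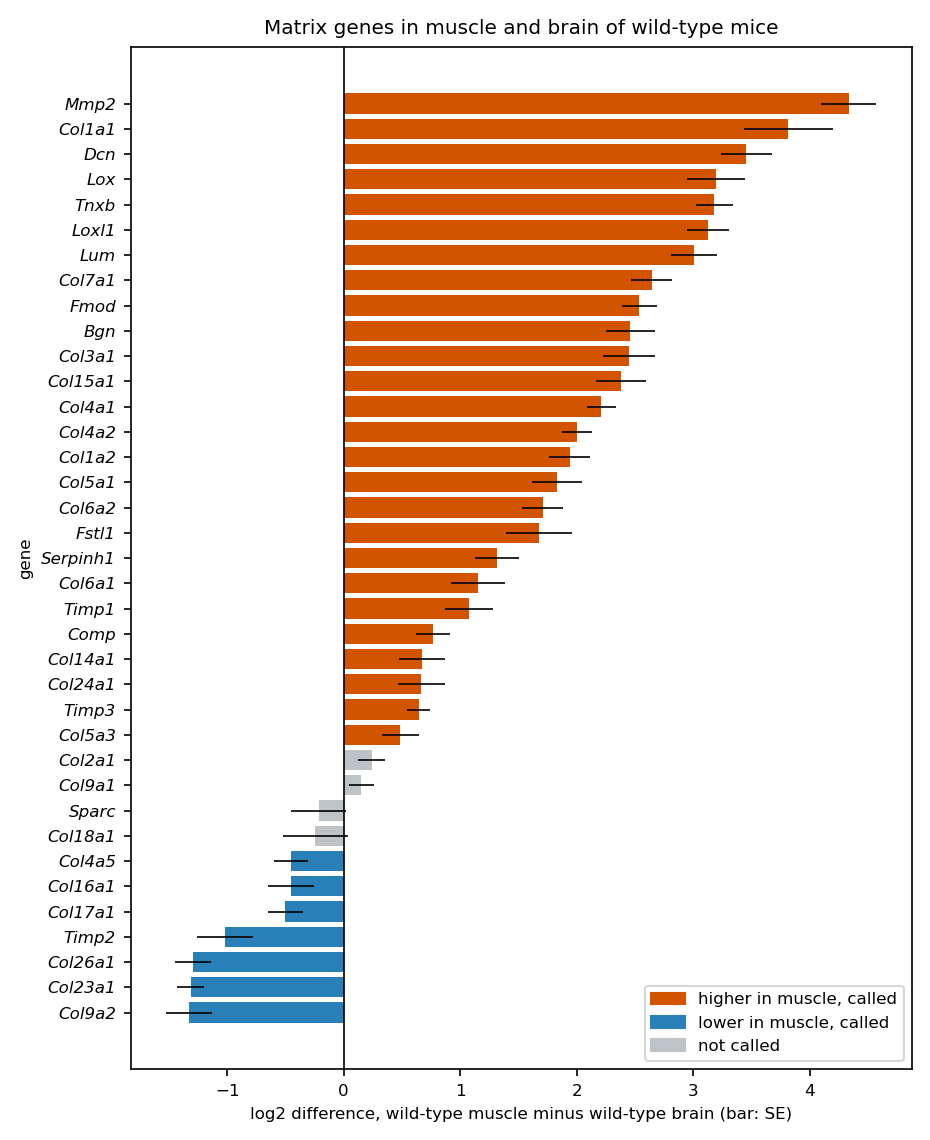
Log2 difference (wild-type muscle minus wild-type brain) of 37 matrix genes, with its SE. Orange bars are higher in muscle and blue bars lower by limma (adjusted p under 0.05), grey bars were not called. Mmp2 has the highest value, 4.34, and Col9a2 the lowest, -1.32; for genes above background in 1 tissue only, the bar rests on a level at background in the other.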

How the data were processed

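Total RNA of 20 mice was labelled as biotinylated cRNA and hybridised to Illumina mouse bead arrays, per the labels' protocols. The deposited file gives an intensity per probe as scanned, without normalization or background subtraction, and a detection p-value for every intensity. The submitters' processing notes name GenomeStudio 2011.1. The authors' processed intensity values served as an alternative.

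Signals were corrected by normexp with negative controls inferred from detection p-values (offset 16), log2-transformed and quantile-normalized, within each tissue for the genotype comparisons and jointly for the tissue comparison. The offset and dim probes understate fold changes. Probes passing detection (p under 0.05) on 4 or more of the muscle arrays, or 6 or more of the brain arrays, were tested with limma 3.58.1 in R 4.3.3 (lmFit and eBayes, Benjamini-Hochberg over all probes tested), and two-sided exact permutation tests were run beside it. A difference is mutant minus wild type, or muscle minus brain, on the log2 scale. The number of arrays limits the precision. Gene symbols came from a platform annotation in which 23978 probes have 1 symbol, 0 have several and 1719 have none, and all 37 members kept their symbol when matched by gene identifier to RefSeq (GRCm38.p6).

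Members described in full are Col1a1, Col1a2, Col3a1, Sparc and those of lowest p up to 10 in muscle (levels on every array), the 8 of lowest p in brain (lowest, median and highest level), the 4 of lowest p in the interaction (both genotype differences) and 5 in each direction between tissues. Dcn and the further probes of Sparc were added after their values were seen. Members, role groups, pathway lists and marker lists were chosen with earlier results of these data known. Replicate numbers are shared between groups but belong to different mice. The correlation of same-numbered deviations was -0.25 to 0.11 in muscle, and in brain 0.22 to 0.62 for 4 numbers but -0.070 and -0.0026 for the other 2, so the numbers were not taken as pairs. The headers name no slide, so no slide term was run. The fits were tested on simulated data.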

Additional observations from a re-analysis of the deposited data

Results flagged for a closer look

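Single arrays lay far from the others of their group for 5 of the genes given in full, by the gap to the nearest array relative to the range of the group, and chance flags about 1 in 20 groups. Of 40 groups looked at, 7 were flagged. The groups are not independent, since the flags for Col1a1, Sparc, Col5a1 and the median deviation all come from the same mouse. The count therefore cannot be read against that rate. Muscle wild type 2 was far above the other wild-type muscles for Col1a1 (log2 level 10.85), Sparc (11.44) and Col5a1 (9.635), and for the median deviation over all 32 matrix genes (1.05). Muscle mutant 4 was above the other mutants for Fmod (7.55). In brain, Col4a1 was high in mutant 6 (7.91) and low in wild type 1 (7.13). No matrix gene passed the test of a difference between the genotype effects of muscle and brain.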

How the results depend on the processing

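No setting called a matrix gene between genotypes in muscle, in brain or in the interaction. In muscle the median difference of the matrix genes stayed below 0 in all alternatives run, from -0.40 to -0.052 leaving out single arrays, where -0.052 is the value without wild type 2 and the others lay at -0.27 or lower, and -0.16 with array weights. The single reversal among the muscle genes given in full was Col1a1, at -1.06 to 0.015 leaving out single arrays, the upper value being that without wild type 2. The brain median moved to -0.16 with median scaling, where the median of all brain probes moved to -0.20 and Col23a1, Col4a1 and Tnxb turned to -0.090, -0.091 and -0.030. Relative to that shift their sign was kept. The brain median was -0.025 to 0.038 leaving out single arrays, 0.016 with the level of Eif2s3y as covariate and 0.026 without the 3 arrays that stood apart, a setting chosen after seeing the data. The interaction median was -0.41 to -0.071 leaving out single arrays. The tissue median was 1.08 to 1.58 leaving out single arrays, 0.68 without background correction and 1.83 with probes above background on every array of a tissue, which tests fewer genes. Timp2 lost its call between tissues with median scaling (-0.63, limma adjusted p = 0.147, highest of its alternatives). The number of all muscle probes called, 21, was 1 without background correction, 8 with an offset of 50, 2 with median scaling, 8 with no detection filter, 8 with detection on every array, 12 under the replicate block, and 12 to 23 leaving out single arrays. For brain, 1 probe was called, and 2 without background correction, with an offset of 50, with detection on every array, with an intensity trend and without the 3 arrays that stood apart, 5 with array weights, 0 with the replicate block and 1 to 2 leaving out single arrays. For the interaction, 5 probes were called, and 1 without background correction or with median scaling, 25 with no detection filter, 3 with detection on every array, 2 with the replicate block and 3 to 6 leaving out single arrays. The block left 0 matrix genes called. A slide term was not run, since the headers name no slide. The cause of these changes was not tested. Probes near background limit what can be said of Col2a1, Col9a1, Col4a5, Col17a1 and type I collagen in brain.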
